A study of Homo sapiens with 6 samples.

Results

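The autophagy machinery was described here across irradiated and control HMC3 cells, an established human cell line kept as a model of microglia. It was taken as 35 genes that cover the core steps of autophagosome formation and the main cargo receptors, found by gene name in the deposited table of transcripts. These 35 genes, of 31768 genes in all, held 304 of 153848 transcript rows. RNA was sequenced as full-length cDNA on the Oxford Nanopore platform in 6 libraries, 3 from independent cultures irradiated with 15 Gy of X-rays and 3 from independent control cultures that received 0 Gy. All cultures were collected after 24 h, were grown in the same serum-containing medium, and belonged to the same immortalized line. The comparison therefore covers 1 dose, 1 time and 1 genetic background. The labelled cell type was checked against 12 microglia markers. Of these, 7, among them P2RY12, TMEM119 and CX3CR1, had no count in any library, and the highest count of any of them was 13 (TREM2). The summed level of the 12 markers was 1.92 to 3.30 CPM (counts scaled to an equal library size) in irradiated cultures and 1.03 to 1.94 CPM in control cultures. By contrast, 10 fibroblast and pericyte markers summed to 352 to 426 CPM in irradiated cultures and 373 to 405 CPM in control cultures. These 10 were uneven, with 737 to 1656 counts of COL1A1 per library, 13 to 19 of PDGFRB and 0 of COL3A1.

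Autophagy is the process by which a cell encloses part of its own cytoplasm in a double membrane, the autophagosome, and delivers it to lysosomes. A kinase complex starts the process, a lipid kinase complex marks the site with phosphatidylinositol 3-phosphate, lipid transfer proteins feed the growing membrane, and a pair of ubiquitin-like conjugation systems attach small ATG8 proteins (the LC3 and GABARAP families) to it, where cargo receptors bind them. Microglia, the phagocytes of the brain, use the same machinery to clear damaged organelles and protein aggregates, and the ATG8 conjugation proteins also act on the membranes of phagosomes. Much of this pathway is known to be set by phosphorylation and lipidation of existing proteins, which RNA counts do not measure.

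Of the 35 genes, 31 passed the filter on low counts and were tested among 11118 genes with edgeR (called at a Benjamini-Hochberg adjusted p under 0.05). The levels given are CPM after TMM normalization. Library totals were 6292049 to 6909420 counts in irradiated cultures and 4870897 to 9082409 in control cultures, and the TMM factors were 1.09 to 1.24 in irradiated and 0.793 to 0.928 in control libraries. Scaling to library totals alone moved the median over all genes by 0.45 on the log2 scale, so every change given below is relative to the TMM scale. Control culture 3 correlated more closely with the irradiated libraries (r = 0.954 to 0.961) than the other control cultures did (0.924 to 0.940). In bulk RNA, fewer cells of a type and less RNA per cell cannot be told apart.

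Within the machinery, genes moved in both directions, most of them by less than 2-fold. RB1CC1, AMBRA1, ATG9A, ATG2A, WIPI2 and GABARAPL1 were called higher, and ATG101, ATG12, GABARAP and GABARAPL2 were called lower. These were 6 of 31 genes higher (19.4%, against 11.6% of all genes tested) and 4 of 31 lower (12.9%, against 14.1%), and 21 were not called. Changes were small, with log2 fold changes of -0.91 to 1.04 over the 31 genes. Their median was 0.07, against 0.08 over all genes tested, and 16 lay above 0 and 15 below. When the absolute log2 fold change also had to exceed 1, only WIPI2 was called, against 5.70% of all genes in either direction. The irradiated and control cultures did not overlap for 15 of the 31 genes (48.4%, against 42.7% of all genes), with the irradiated cultures higher for 9 (21.5% of all genes) and lower for 6 (21.3%). The counts of called genes therefore lay near those of all genes in the lower direction, and somewhat above them in the higher direction. This count was not stable to single libraries. Without control culture 1 or without irradiated culture 1, 1 member was higher, and without irradiated culture 3, 3 were. The share of all genes called in these fits is not given, so the fall cannot be read as particular to the members.

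**Figure D1:**
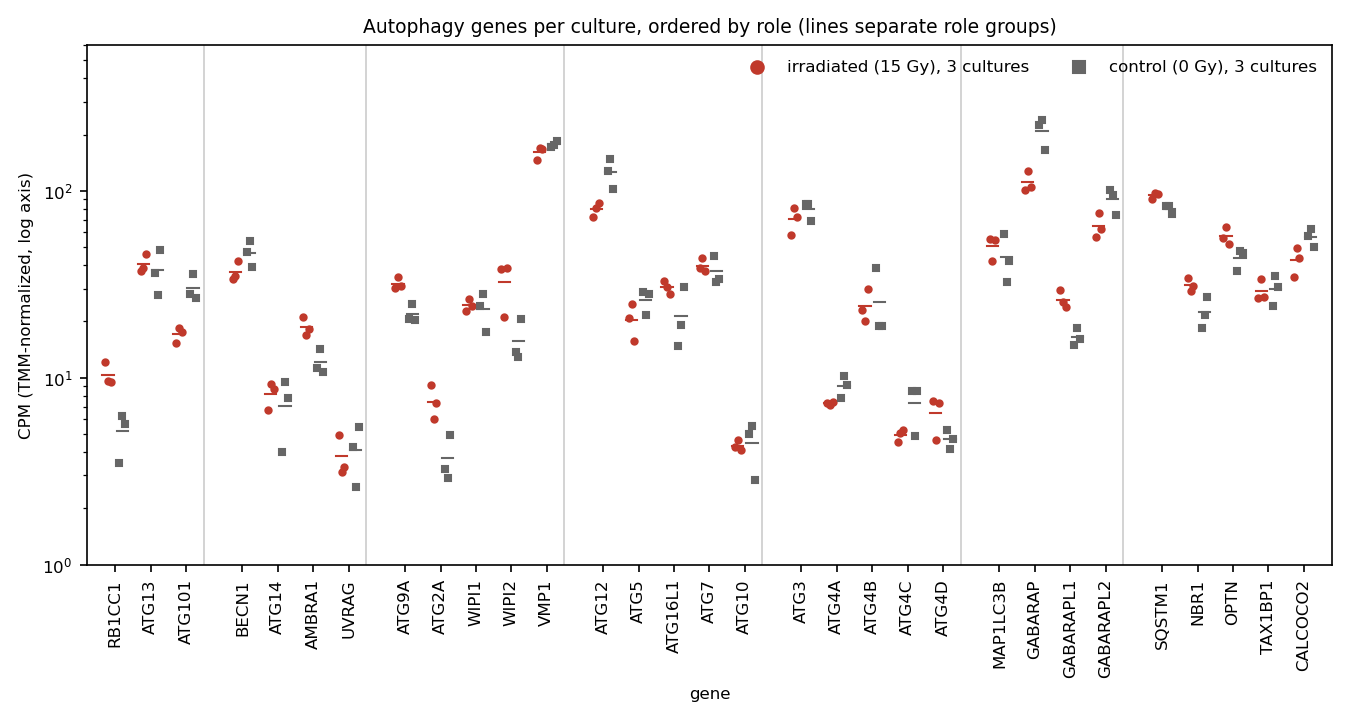
CPM of the 31 tested autophagy genes in each culture, on a log axis, ordered by role, with irradiated cultures as circles and control cultures as squares. GABARAP showed the widest gap between groups among the abundant genes, at 100.9 to 128 CPM in irradiated cultures and 166 to 239 CPM in control cultures.

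The total of the machinery did not separate the groups on the TMM scale. The summed CPM of the tested members was 1132, 1238 and 1205 in irradiated cultures and 1354, 1381 and 1229 in control cultures, so the groups overlapped. As a share of the raw library, all 35 genes took 0.136%, 0.131% and 0.138% of counts in irradiated cultures, against 0.112%, 0.106% and 0.110% in control cultures. The direction of this sum thus turned with the scaling, being mostly lower after TMM and higher in every irradiated culture without it.

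The initiation kinase complex moved in both directions. It consists of the kinase ULK1 or ULK2 with the scaffold RB1CC1 (also known as FIP200) and the adaptors ATG13 and ATG101. RB1CC1 had 12.2, 9.57 and 9.46 CPM in irradiated cultures, against 3.51, 6.27 and 5.68 CPM in control cultures. All 3 irradiated cultures lay above all control cultures, and the gene rose by 0.98 on the log2 scale (SE 0.29, edgeR adjusted p = 0.0208). The smallest group of reads behind this was 14 counts, in control culture 1. ATG101, which stabilizes ATG13, had 15.4, 18.5 and 17.6 CPM in irradiated cultures, against 28.1, 35.8 and 26.8 CPM in control cultures. The groups were well apart, with every irradiated culture lower, and the log2 fold change was -0.82 (SE 0.19, edgeR adjusted p = 0.00628). ATG13 averaged 40.6 ± 4.85 CPM in irradiated and 37.5 ± 10.3 CPM in control cultures (SD, n = 3 each) and was not called (log2 fold change 0.11). The ratio of RB1CC1 to ATG101 counts was chosen after the values were seen and is given without a test. It was 0.791, 0.516 and 0.536 in irradiated cultures and 0.125, 0.175 and 0.212 in control cultures. The ratio was not adjusted for transcript length, which averaged 6528 bases for RB1CC1 and 1405 for ATG101. Changes followed length over all genes, as described below. The RB1CC1 call was lost without control culture 1 (edgeR adjusted p = 0.0734) and without irradiated culture 1 (0.0979), and the ATG101 call was kept in every fit that left out a library.

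Both kinase genes fell outside the test. ULK1, the kinase that starts autophagy when nutrients or energy run low, had 40, 35 and 36 counts in irradiated cultures and 19, 16 and 20 in control cultures, and fewer than 2 of its transcripts passed the filter. Its counts were higher in each irradiated culture, and with all transcript rows summed its log2 fold change was 0.69, which was not called (edgeR adjusted p = 0.169). ULK2, its close relative, had 3, 3 and 1 counts in irradiated cultures and 0, 1 and 0 in control cultures, so no difference was detectable at this depth.

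In the class III PI3K complex, only AMBRA1 was called. AMBRA1, a regulator that binds Beclin 1 and helps ULK1 and the lipid kinase act together, had 21.1, 16.9 and 18.3 CPM in irradiated cultures, against 11.3, 14.2 and 10.8 CPM in control cultures. The groups did not overlap, and it rose by 0.63 on the log2 scale (SE 0.22, edgeR adjusted p = 0.0422). BECN1, which encodes the Beclin 1 scaffold, averaged 37.0 ± 4.51 CPM in irradiated and 46.7 ± 7.49 CPM in control cultures (log2 fold change -0.33). ATG14, the subunit that brings the complex to sites of autophagosome formation, and UVRAG, the subunit that replaces it in endosomal trafficking, had log2 fold changes of 0.18 and -0.11 at means under 10 CPM in both groups. BECN1 shares exonic sequence with PSME3 on the opposite strand, and its level is uncertain because the sources used here do not give strand handling. The AMBRA1 call was kept only without control culture 2 (edgeR adjusted p = 0.0402), and with any other library left out the adjusted p was 0.0515 to 0.161.

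Membrane supply and lipid transfer was the role group with the most called genes, 3 of 5 tested. ATG9A, the lipid scramblase whose vesicles seed the autophagosome, had 30.1, 34.5 and 31.1 CPM in irradiated cultures, against 20.6, 24.9 and 20.4 CPM in control cultures. Irradiated cultures were higher without overlap, and the log2 fold change was 0.54 (SE 0.18, edgeR adjusted p = 0.0364). ATG2A, the bridge protein that carries lipids from the endoplasmic reticulum into the growing membrane, had 9.098, 5.98 and 7.29 CPM in irradiated cultures, against 3.26, 2.91 and 4.94 CPM in control cultures. It rose by 0.98 on the log2 scale (SE 0.33, edgeR adjusted p = 0.0391), on as few as 13 counts in control culture 1. WIPI2, which reads phosphatidylinositol 3-phosphate and recruits ATG16L1, had 38.4, 21.1 and 38.6 CPM in irradiated cultures, against 13.8, 12.9 and 20.5 CPM in control cultures. Irradiated culture 2 lay just above control culture 3, and the other irradiated cultures stood far above all controls. The WIPI2 log2 fold change of 1.04 (SE 0.25, edgeR adjusted p = 0.00698) was the largest among the 31 tested genes.

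The remaining genes of this group were close between irradiated and control cultures. WIPI1, a relative of WIPI2 that binds the same lipid, averaged 24.4 ± 1.80 CPM in irradiated and 23.3 ± 5.23 CPM in control cultures (log2 fold change 0.07). VMP1, an endoplasmic reticulum scramblase needed to close the autophagosome, averaged 162 ± 12.8 CPM in irradiated and 178 ± 7.44 CPM in control cultures (log2 fold change -0.14). Neither was called. ATG2B, the second lipid bridge, was not tested because it has 1 transcript row. Its counts were 21, 24 and 21 in irradiated cultures and 14, 6 and 17 in control cultures, and it was not called when all transcript rows were used (log2 fold change 0.52, edgeR adjusted p = 0.448). WIPI2 was called whichever library was left out, with a log2 fold change of 0.91 to 1.28 that lay under 1 without control culture 1 or 2 or irradiated culture 1 or 3. ATG9A was called only without control culture 2 (edgeR adjusted p = 0.0348) and ATG2A only without control culture 3 (0.0187) or irradiated culture 2 (0.0391), and with any other library left out the adjusted p ran from 0.0733 to 0.113 for ATG9A and from 0.0859 to 0.168 for ATG2A.

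In the ATG12 conjugation system, ATG12 fell and its partners were not called. ATG12 is a ubiquitin-like protein that ATG7 and ATG10 attach to ATG5, and the product joins ATG16L1 to direct ATG8 lipidation. ATG12 had 72.5, 81.2 and 86.5 CPM in irradiated cultures, against 127, 149 and 102 CPM in control cultures. The highest irradiated culture was still below the lowest control culture, and ATG12 fell by 0.65 on the log2 scale (SE 0.15, edgeR adjusted p = 0.00486). This call held in each fit that left out a library. ATG5, the acceptor of ATG12, averaged 20.4 ± 4.49 CPM in irradiated and 26.2 ± 4.02 CPM in control cultures, and ATG16L1 averaged 30.5 ± 2.53 CPM in irradiated and 21.4 ± 8.05 CPM in control cultures. Their log2 fold changes of -0.36 and 0.48 had edgeR adjusted p-values of 0.220 and 0.128. ATG7, the activating enzyme shared by both conjugation systems, was at 39.8 ± 3.24 CPM in irradiated and 37.0 ± 6.63 CPM in control cultures. ATG10, the enzyme that hands ATG12 to ATG5, was at 4.34 ± 0.28 CPM in irradiated and 4.46 ± 1.42 CPM in control cultures, a total of 185 counts over all libraries. It overlaps exons of the ribosomal protein gene RPS23 on the opposite strand, which had 206559 counts in all. ATG12 overlaps AP3S1 in the same way, so both levels depend on how strand was handled. The same limit holds for other members, among them ATG4D (230 counts, against 1250 of KRI1) and ATG2B (103, against 436 of GSKIP). Further cases were ATG4B (988, against 1027 of THAP4) and VMP1 (6888, against 3773 of PTRH2).

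None of the 5 genes that process and conjugate ATG8 proteins was called by edgeR with TMM factors or by DESeq2. None had an unadjusted p under 0.05 in that edgeR fit. With library totals alone, ATG4D was called higher, where 32.8% of all genes were. ATG4 proteases expose the glycine at the end of each ATG8 protein and later release it from the membrane, and ATG3 is the enzyme that transfers ATG8 to phosphatidylethanolamine. The smallest adjusted p in the group was that of ATG4C, which had 4.55, 5.08 and 5.24 CPM in irradiated cultures and 8.53, 4.896 and 8.53 CPM in control cultures. Its groups overlapped through control culture 2 (log2 fold change -0.55, SE 0.31, edgeR adjusted p = 0.206). ATG4A, ATG4B, ATG4D and ATG3 had log2 fold changes of -0.32, -0.04, 0.48 and -0.18.

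The 5 ATG8 genes differed among themselves, with GABARAP and GABARAPL2 lower, GABARAPL1 higher and MAP1LC3B not called. The ends of the coding sequences of the 4 expressed genes are shown because the proteins they encode are made as precursors that ATG4 cuts after the glycine, whose codon is in capitals. They run to the stop codon, are written 5′ to 3′ on the coding strand and come from the GRCh38 transcripts ENST00000302386 (GABARAP, chr17:7240854-7240892, minus strand), ENST00000266458 (GABARAPL1, chr12:10221814-10221852, plus strand), ENST00000037243 (GABARAPL2, chr16:75577331-75577369, plus strand) and ENST00000268607 (MAP1LC3B, chr16:87403047-87403097, plus strand).
GABARAP: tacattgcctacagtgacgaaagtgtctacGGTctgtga
GABARAPL1: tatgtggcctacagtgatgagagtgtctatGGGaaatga
GABARAPL2: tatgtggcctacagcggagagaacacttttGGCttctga
MAP1LC3B: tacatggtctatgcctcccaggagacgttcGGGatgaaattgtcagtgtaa
In each GABARAP family gene a single codon stands between the glycine and the stop codon, while MAP1LC3B has a longer tail. Over the whole coding sequence GABARAP was 76.84% identical to GABARAPL1 and 64.35% identical to GABARAPL2, and the 3 GABARAP family genes were 50.66% to 56.25% identical to MAP1LC3B.

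GABARAP, which acts mainly in late stages of autophagosome formation and in recruiting the ULK1 complex, had the smallest adjusted p of the 31 tested genes. It had 100.9, 128 and 105 CPM in irradiated cultures, against 225, 239 and 166 CPM in control cultures. All irradiated cultures were below all controls, and GABARAP fell by 0.91 on the log2 scale (SE 0.15, edgeR adjusted p = 0.000828). GABARAPL2, also known as GATE-16 and linked to transport within the Golgi apparatus, had 56.7, 76.3 and 62.5 CPM in irradiated cultures, against 100.8, 95.5 and 74.1 CPM in control cultures. Irradiated culture 2 lay above control culture 3, so the groups overlapped, and the log2 fold change was -0.46 (SE 0.15, edgeR adjusted p = 0.0370). GABARAPL1, the closest relative of GABARAP by sequence, had 29.3, 25.3 and 23.8 CPM in irradiated cultures, against 15.1, 18.5 and 16.2 CPM in control cultures. It moved the other way from GABARAP, with every irradiated culture above every control (log2 fold change 0.65, SE 0.19, edgeR adjusted p = 0.0213).

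MAP1LC3B, the ATG8 gene whose protein is the usual marker of autophagosomes, had 55.0, 42.3 and 54.8 CPM in irradiated cultures and 58.7, 32.6 and 42.0 CPM in control cultures. The groups overlapped and the gene was not called (log2 fold change 0.21, edgeR adjusted p = 0.463). Its near-identical copy MAP1LC3B2 was counted apart, at 39, 31 and 44 counts in irradiated and 7, 10 and 22 in control cultures, and reads of the pair may have been split between them. MAP1LC3A had 1, 4 and 3 counts in irradiated cultures and none in any control culture, which is too few to compare. The ratio of GABARAPL1 to GABARAP counts, chosen after the values were seen and not tested, does not depend on library scaling and was 0.290, 0.197 and 0.226 in irradiated cultures, against 0.0668, 0.0776 and 0.0973 in control cultures. The ratio of GABARAPL2 to GABARAP counts was 0.562, 0.594 and 0.594 in irradiated and 0.448, 0.400 and 0.445 in control cultures. Neither ratio was adjusted for transcript length. GABARAP was called in every fit that left out a library, GABARAPL1 was lost without control culture 1 (edgeR adjusted p = 0.0727) or irradiated culture 1 (0.102), and GABARAPL2 was kept only without control culture 3 (0.00421) or irradiated culture 2 (0.0177), with 0.114 to 0.152 otherwise. Scaling to library totals alone left GABARAP lower (log2 fold change -0.46, edgeR adjusted p = 0.0104) but brought ATG101, ATG12 and GABARAPL2 to -0.36, -0.19 and -0.01, none of them called. With that scaling 15 members were higher (against 32.8% of all genes) and 1 lower (against 3.20%). DESeq2 called 3 members higher (against 9.77%), RB1CC1, WIPI2 and GABARAPL1, and the same 4 lower (against 14.9%).

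None of the 5 cargo receptors was called by edgeR or DESeq2. The groups did not overlap for 4 of them, against 42.7% of all genes. At an unadjusted edgeR p under 0.05, 2 were higher and 1 lower, against 2182 and 2148 of all 11118 genes. Some alternative fits of edgeR did call members of this group. CALCOCO2 was lower with the length offset, with a replicate block, without control culture 3 and without irradiated culture 2. NBR1 was higher without control culture 3 (adjusted p = 0.0280), and NBR1, OPTN and SQSTM1 were higher with library totals alone. With TMM factors, NBR1, which binds ubiquitin and ATG8 proteins and is a main receptor for protein aggregates and peroxisomes, came closest. It had 34.3, 29.01 and 30.8 CPM in irradiated cultures, against 18.6, 21.7 and 26.9 CPM in control cultures, with every irradiated culture the higher (log2 fold change 0.47, SE 0.19, edgeR adjusted p = 0.0749). SQSTM1, which encodes p62 and is both a receptor for and a substrate of autophagy, averaged 94.7 ± 4.12 CPM in irradiated and 80.3 ± 4.50 CPM in control cultures (log2 fold change 0.24). OPTN, a receptor for damaged mitochondria, averaged 57.4 ± 5.96 CPM in irradiated and 43.8 ± 5.84 CPM in control cultures (log2 fold change 0.38, edgeR adjusted p = 0.0810). CALCOCO2, which encodes NDP52 and targets bacteria and mitochondria, averaged 42.6 ± 7.54 CPM in irradiated and 56.6 ± 6.08 CPM in control cultures (log2 fold change -0.41, edgeR adjusted p = 0.0758). TAX1BP1, its relative, was at 29.3 ± 4.06 CPM in irradiated and 29.8 ± 5.50 CPM in control cultures.

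**Figure D2:**
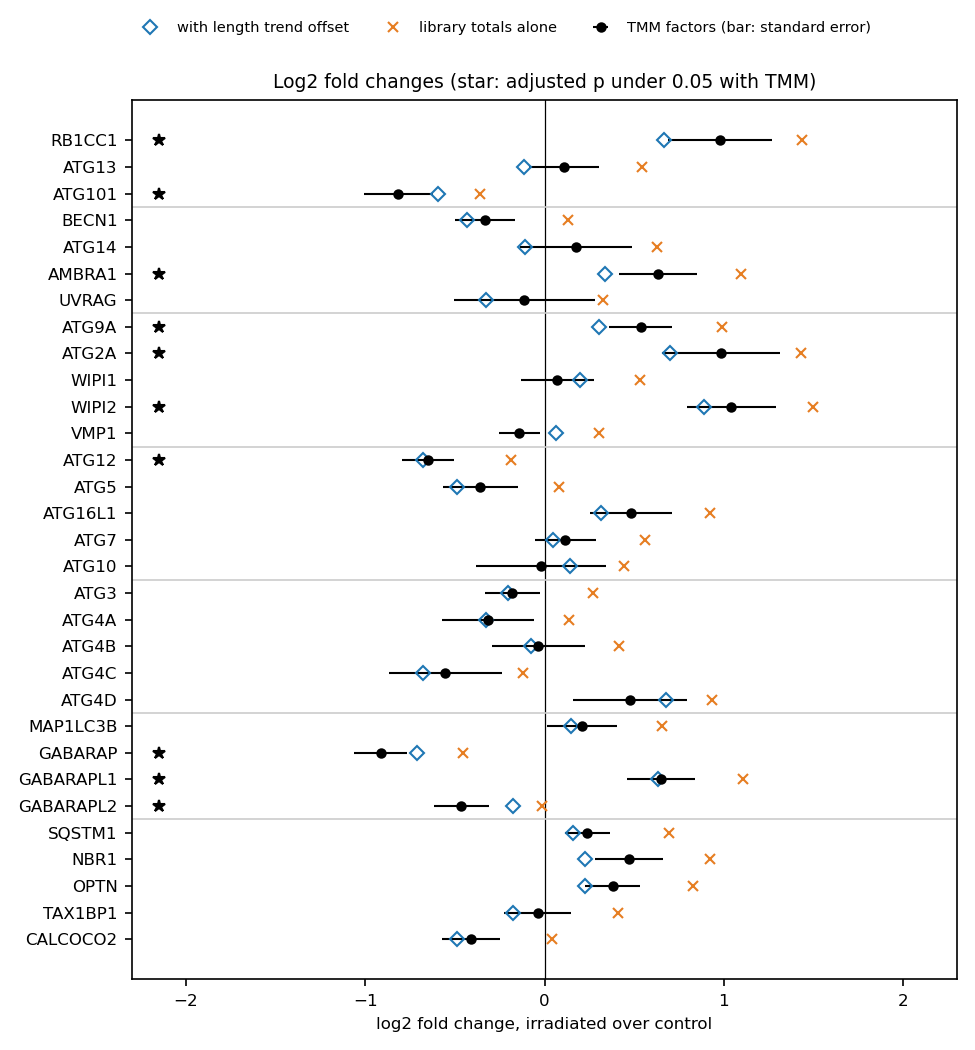
Log2 fold changes in irradiated relative to control cultures for the 31 tested autophagy genes with standard errors and under other scalings, ordered by role, with stars at genes called with TMM factors. GABARAP lay below 0 under each scaling drawn, at -0.91 with TMM factors, and WIPI2 above 0, at 1.04 with TMM factors.

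Changes followed transcript length among the members as they did among all genes. Lengths are count-weighted means over the kept transcripts of each gene, taken from GENCODE 29. The Spearman correlation between length and log2 fold change was 0.57 across the 31 members and 0.37 across 10668 genes, given as a description because genes of the same libraries are not independent replicates. The 5 members of at most 1500 bases had a median log2 fold change of -0.46, against -0.37 for all genes of that length, and 3 of the 4 genes called lower (ATG101, GABARAP and GABARAPL2) were among them. The 3 members over 5000 bases (RB1CC1, ATG2A and AMBRA1) had a median of 0.98, against 0.34 for all such genes, and all 3 were called higher. When the trend of each library on length was removed by an offset, 8.70% of all genes were called higher and 11.7% lower. GABARAPL1 and WIPI2 were still higher, with log2 fold changes of 0.63 and 0.89, and ATG101, ATG12 and GABARAP still lower, at -0.59, -0.68 and -0.71. CALCOCO2, not called without it, was called lower with this offset. RB1CC1 (0.67, edgeR adjusted p = 0.113), ATG2A (0.70, 0.131), AMBRA1 (0.33, 0.316), ATG9A (0.30, 0.259) and GABARAPL2 (-0.18, 0.377) were no longer called. What in the cells or libraries moved with length was not tested.

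**Figure D3:**
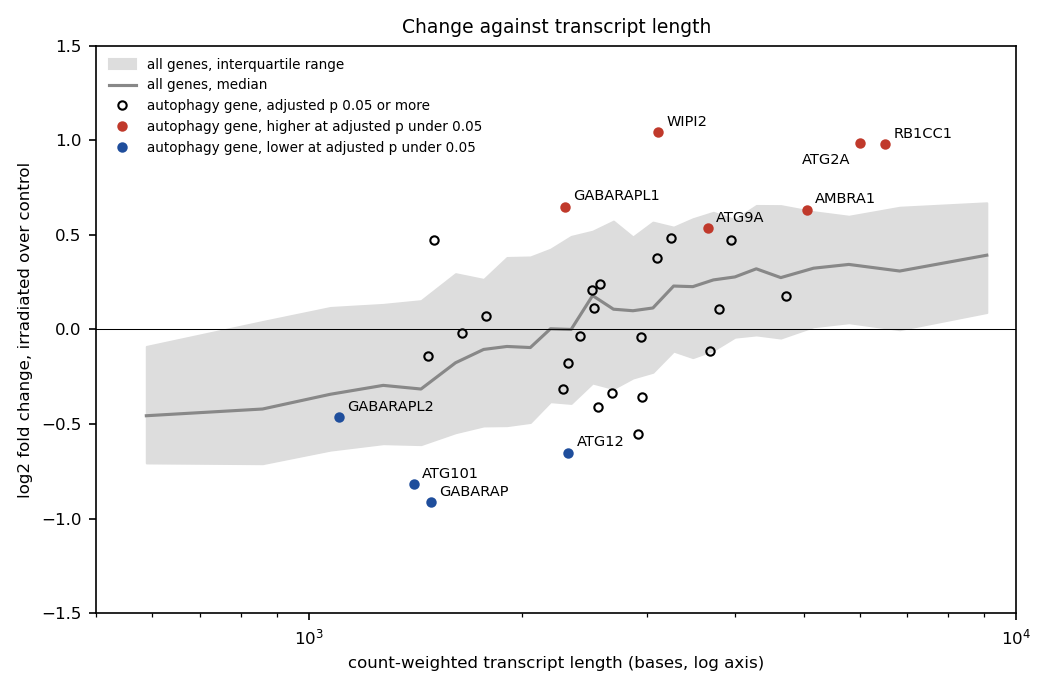
Log2 fold change, irradiated over control, against count-weighted transcript length in bases on a log axis, with the median and interquartile range of all genes as a line and a band and the autophagy genes as points. Members of at most 1500 bases had a median of -0.46 and those over 5000 bases a median of 0.98, against -0.37 and 0.34 for all genes of those lengths.

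Of the 203 member transcripts tested, 3 were called higher and 5 lower by edgeR when the absolute log2 fold change had to exceed 1, against 3.36% and 4.33% of all 74843 transcripts. Without that limit on the fold change, 16 were higher (against 8.54%) and 17 lower (against 10.7%). The edgeR p-values of transcripts match log2 fold change over SE read on a normal distribution. They make no allowance for a spread estimated from 3 cultures per group and may be too small. DESeq2 adjusted p-values were larger, at 2.05e-08 (GABARAP ENST00000302386), 0.000152 (ATG12 ENST00000505993) and 0.000283 (ATG3 ENST00000494571). They were 0.00855 for WIPI2 ENST00000471851 and 0.0136 for ATG5 ENST00000369076. The main transcript of GABARAP, the protein-coding ENST00000302386, fell with its gene. It had 76.4, 100 and 78.3 CPM in irradiated cultures, against 202, 221 and 140 CPM in control cultures, with no overlap between the groups (log2 fold change -1.14, edgeR adjusted p = 5.8e-10). A shorter coding transcript of the gene with another first exon, ENST00000577035, had 21.7, 22.7 and 22.3 CPM in irradiated cultures and 23.5, 24.05 and 25.45 CPM in control cultures and was not called (log2 fold change -0.14). Its isoform fraction, the percent of the gene's counts, was 21.9%, 17.9% and 21.6% in irradiated cultures, against 10.4%, 9.69% and 15.2% in control cultures. The difference of 8.73 percentage points passed the usage test (edgeR adjusted p = 0.00407) but not the limit of 10 points for a switch.

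Of the other 7 called transcripts, 1 is annotated as protein-coding, and the rest as retained-intron, nonsense-mediated decay or processed transcripts. In ATG12 the nonsense-mediated decay transcript ENST00000505993 had 9.45, 12.7 and 11.3 CPM in irradiated cultures, against 22.8, 26.8 and 17.9 CPM in control cultures (log2 fold change -1.01, edgeR adjusted p = 1.9e-06). Its leading coding transcript, ENST00000509910, held 33.2 ± 1.25% of the gene's counts in irradiated and 35.1 ± 0.96% in control cultures and was lower as well (log2 fold change -0.79, edgeR adjusted p = 6.34e-05). In WIPI2 the retained-intron transcript ENST00000471851 had 11.03, 6.05 and 12.5 CPM in irradiated cultures, against 3.29, 3.82 and 5.71 CPM in control cultures (log2 fold change 1.15, edgeR adjusted p = 1.91e-05). The leading coding transcript of WIPI2, ENST00000288828, was also higher (log2 fold change 0.93, edgeR adjusted p = 0.000181), and the retained-intron fraction of 30.5 ± 2.28% in irradiated and 26.6 ± 2.64% in control cultures did not pass the usage test.

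In ATG5 the leading coding transcript ENST00000369076 fell while the gene as a whole was not called. It had 3.81, 5.46 and 2.75 CPM in irradiated cultures, against 8.61, 7.48 and 7.94 CPM in control cultures (log2 fold change -1.01, edgeR adjusted p = 0.000564). Both this transcript and the ATG12 one lay just past the limit on the fold change. Its isoform fraction was 18.6%, 22.4% and 17.9% in irradiated and 29.6%, 33.3% and 28.1% in control cultures, a switch by limma (adjusted p = 0.0313) and not by edgeR (adjusted p = 0.177). The remaining 3 called transcripts had low levels, with means of at most 2.33 CPM in either group. They were the lower ATG5 nonsense-mediated decay transcript ENST00000646025 (log2 fold change -1.63, edgeR adjusted p = 0.0113), the lower ATG4B retained-intron transcript ENST00000483778 (-1.79, 0.0129) and the higher ATG13 processed transcript ENST00000526485 (1.05, 0.0458). Leaving out a single library ended each of these 3 calls, with adjusted p-values up to 0.0895 for ENST00000646025 (without control culture 2, or irradiated culture 3), 0.179 for ENST00000483778 (without irradiated culture 1, or control culture 2) and 0.397 for ENST00000526485 (without control culture 2, control culture 1, irradiated culture 1 or irradiated culture 3). The ENST00000526485 call was also lost with DESeq2 and with RLE factors. The leading coding transcripts of ATG4B and ATG13, ENST00000405546 and ENST00000526508, had log2 fold changes of 0.06 and -0.08. Some transcripts of a gene held near-equal counts. ENST00000526508 held 22.2% of ATG13 counts in irradiated and 24.7% in control cultures, and ENST00000524625 held 22.0% and 22.7%. Levels and fractions of such transcripts may not be resolved from each other, and which of them leads is uncertain.

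The usage test of edgeR was passed by 8 member transcripts (against 4.44% of all transcripts), and with the limit of 10 points a single one, in ATG3, was called as switched (against 0.404%). With limma 3 member isoforms were called as switched (against 1.22%). ENST00000494571 is annotated as retaining the intron at chr3:112534338-112536474 (2137 bases, GRCh38), which lies between exons 10 and 11 of the 12-exon coding transcript ENST00000283290. The sequences at both ends of this intron are shown, with intron bases in capitals and exon bases in lower case, beside the junction that replaces them when the intron is removed. They are written 5′ to 3′ on the minus strand, which encodes ATG3. The intron start lies at chr3:112536445-112536504, its end at chr3:112534308-112534367, and the spliced junction joins bases of chr3:112534308-112536504.
ATG3 start of the retained intron: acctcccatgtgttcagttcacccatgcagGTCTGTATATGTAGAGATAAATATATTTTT
ATG3 end of the retained intron: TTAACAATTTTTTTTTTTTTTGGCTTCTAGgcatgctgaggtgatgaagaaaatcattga
ATG3 spliced junction: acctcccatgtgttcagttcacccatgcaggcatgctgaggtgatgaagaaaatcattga
The intron begins with GT and ends with AG, as most human introns do, and a run of T precedes its end.

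The retained-intron transcript of ATG3 had 10.6, 12.7 and 13.0 CPM in irradiated cultures, against 3.04, 4.46 and 6.33 CPM in control cultures. Each irradiated culture lay above each control (log2 fold change 1.31, SE 0.22, edgeR adjusted p = 2.53e-07). Its isoform fraction was 18.7%, 16.0% and 18.3% in irradiated cultures, against 3.52%, 5.05% and 9.14% in control cultures. The mean fraction was 17.7 ± 1.49% in irradiated and 5.90 ± 2.91% in control cultures (SD, n = 3 each), and the difference of 11.8 percentage points passed the usage test (edgeR adjusted p = 3.89e-05). The leading coding transcript ENST00000283290 held 40.3 ± 0.34% in irradiated and 45.9 ± 1.27% in control cultures and was not called in level (log2 fold change -0.42, edgeR adjusted p = 0.0591), while the gene total had a log2 fold change of -0.18. The switch was called whichever library was left out. With counts divided by transcript length, the difference in fraction was 0.0924, under the limit of 0.1.

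GABARAPL2 changed in the make-up of its transcripts beyond its change in level. Its coding transcript ENST00000037243 held 64.6%, 73.3% and 67.5% of the gene's counts in irradiated cultures, against 87.8%, 91.7% and 79.2% in control cultures. This difference of -17.7 percentage points was called by limma (adjusted p = 6.17e-05) and not by edgeR (adjusted p = 0.456). The transcript fell by 0.85 on the log2 scale (edgeR adjusted p = 7.08e-06). A pair of lesser transcripts, described after their values were seen, rose in level and in fraction. ENST00000563744, which skips exon 3 of 4 (chr16:75568037-75568209, 173 bases), had 9.58, 9.73 and 9.14 CPM in irradiated cultures, against 6.33, 4.30 and 7.45 CPM in control cultures (log2 fold change 0.64, edgeR adjusted p = 0.0245).

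The 2 GABARAPL2 junctions are shown because they tell these transcripts apart, with the end of exon 2 in lower case and the start of the exon that follows it in capitals. They are written 5′ to 3′ on the plus strand of GRCh38, the first joining bases of chr16:75566878-75568066 and the second bases of chr16:75566878-75577308.
GABARAPL2 exon 2 joined to exon 3: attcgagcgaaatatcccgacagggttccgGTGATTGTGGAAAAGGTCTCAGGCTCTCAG
GABARAPL2 exon 2 joined to exon 4: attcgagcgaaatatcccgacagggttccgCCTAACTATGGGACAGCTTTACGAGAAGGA
The skipped exon is 173 bases long, which is not a multiple of 3. The exon-skipping form held 17.2%, 12.9% and 14.9% of GABARAPL2 counts in irradiated cultures, against 6.22%, 4.33% and 10% in control cultures (edgeR adjusted p = 0.00225 for usage). The single-exon transcript ENST00000565985 held 17.5%, 12.2% and 14.7% in irradiated and 4.98%, 3.21% and 9.50% in control cultures (edgeR adjusted p = 0.000482 for usage). For both forms the irradiated cultures lay above the controls without overlap, at differences of 8.18 and 8.88 percentage points, under the limit for a switch. Control culture 3 had the highest fraction of each lesser form among the controls, also in ATG3 and in GABARAP.

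**Figure D4:**
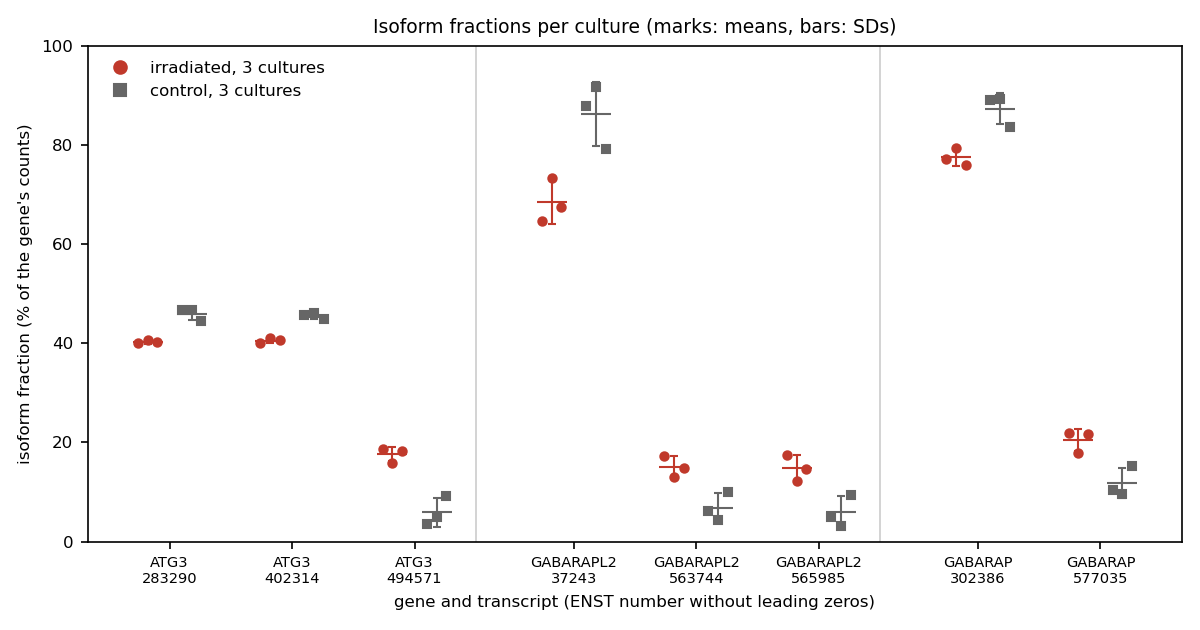
Isoform fractions, as percent of the gene's counts, of 8 transcripts of ATG3, GABARAPL2 and GABARAP in each culture, with irradiated cultures as circles, control cultures as squares and bars for means and SDs. The retained-intron transcript of ATG3 lay at 16.0% to 18.7% in irradiated cultures and 3.52% to 9.14% in control cultures.

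Other genes of the pathway, listed by their textbook role but with earlier results of these data known, were higher more often than lower. Of 62 such genes 53 were tested, and 16 were called higher (30.2%, against 11.6% of all genes) and 4 lower (7.55%, against 14.1%), with a median log2 fold change of 0.27 against 0.08 over all genes. Without irradiated culture 1 these counts were 7 and 2, in a fit whose share over all genes is not given. Their median transcript length was 3284 bases, against 2692 over all genes, and with the length offset 9 were higher and 4 lower, where 8.70% and 11.7% of all genes were. Among 12 tested core genes outside the set, 6 were higher and none lower, led by ATG16L2, a relative of ATG16L1, at 15.1 ± 3.67 CPM in irradiated and 5.83 ± 3.13 CPM in control cultures (log2 fold change 1.31, edgeR adjusted p = 0.00862). WDR45, a WIPI family protein, and TMEM41B, a scramblase that works with VMP1, rose by 0.63 and 0.65 on the log2 scale (edgeR adjusted p = 0.0180 and 0.0237). The WDR45 call was lost without control culture 1 (0.0821) or irradiated culture 1 (0.0803), and that of TMEM41B with the length offset (0.0719) and without control culture 1 or 2 or irradiated culture 1 or 3 (adjusted p from 0.0598 to 0.122). Among 12 genes of autophagosome-lysosome fusion, 3 were higher and none lower. These were the SNARE protein YKT6 (log2 fold change 0.64) and the subunits VPS39 (0.78) and VPS11 (0.74) of the HOPS tethering complex, with edgeR adjusted p-values of 0.00673, 0.0148 and 0.0338. YKT6 kept its call in every alternative of the gene test, and VPS39 lost it with the length offset (0.0958) and without irradiated culture 2 (0.0612). VPS11 was called in 5 of 13 alternatives, being lost with DESeq2 (0.0631), the length offset (0.0838), no filter (0.0533), and without control culture 1 or 2 or any irradiated culture (0.0543 to 0.124).

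Other cargo receptors and adaptors went in both directions, with 2 of 14 higher and 4 lower. CALCOCO1, a receptor for the endoplasmic reticulum and Golgi apparatus, averaged 39.8 ± 9.62 CPM in irradiated and 16.9 ± 2.33 CPM in control cultures (log2 fold change 1.23, edgeR adjusted p = 0.000995). TEX264, another receptor for the endoplasmic reticulum, and BNIP3, a mitochondrial receptor, had log2 fold changes of -0.64 each (edgeR adjusted p = 0.00319 and 0.00798), and with library totals alone both were at -0.18 and not called. Of 15 regulators tested, 5 were higher and none lower. TP53INP1 and TP53INP2, p53-inducible or related nuclear proteins that bind ATG8 proteins, rose by 1.90 and 1.05 on the log2 scale (edgeR adjusted p = 0.00268 and 0.00607). MTOR, the kinase that holds ULK1 inactive when nutrients are plentiful, averaged 36.2 ± 9.03 CPM in irradiated and 20.1 ± 4.68 CPM in control cultures (log2 fold change 0.83, edgeR adjusted p = 0.0118), a call lost with the length offset (0.0813) and without irradiated culture 1 (0.0750).

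The promoters of the members were searched for CACGTG, the palindromic core of the element bound by TFEB and related factors, which also binds other factors of that class. The window was the 300 bases around the start site in the RefSeq annotation of GRCh38.p14. It was found in the promoters of 2 of 31 matched members (6.45%), ATG3 and ATG14, against 2030 of 27305 genes (7.43%). Neither gene was called in level.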

How the data were processed

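Whole-number counts per transcript and library were deposited by the authors, who per the labels used minimap2, Salmon and GRCh38. Tool versions, annotation release and strand handling were not given in the sources used here, nor whether reads were collapsed by the molecular identifiers that the library kit carries, so counts may not be independent molecules. The deposited counts were used as they are.

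The 35 members and the lists of other genes were chosen with earlier results of these data known. By the filter that the study applied to isoform usage, used here for gene and transcript tests too, a gene needed 10 counts or more in 3 or more libraries and 2 or more kept transcripts, a transcript needed 3 counts or more in any library, and kept transcripts were summed per gene. They held 95.6% to 96.4% of each library. Irradiated and control groups were compared with edgeR 4.0.16 in R 4.3.3 (TMM factors, robust glmQLFit, glmQLFTest, Benjamini-Hochberg adjustment over all features). The standard error is the absolute log2 fold change over the square root of F. Isoform usage was tested with diffSpliceDGE on counts, with a limit of 10 percentage points. For genes and transcripts the study tested with DESeq2, which was run here (1.42.0) as an alternative. For isoform switches it used IsoformSwitchAnalyzeR with fractions of transcript abundance. That tool was not run here, and the fractions here are of counts, so switches are not directly comparable with the study's. Usage was also tested with limma 3.58.1 (diffSplice on voom values) as an alternative. Other alternatives were RLE factors, library totals alone, other filters, a length offset, a replicate block and leaving out each library. The edgeR tests and limma's diffSplice were tested on simulated data. There edgeR called 73 of 100 genes changed 2-fold, 100 of 100 changed 4-fold and 8 of 10485 unchanged. Of 400 isoforms with moved usage, edgeR called 272 and limma 316. In unchanged genes they called 2 and 8 of 73111 isoforms. Changes under 2-fold, as most members had, were not simulated. Transcript lengths, classes and coordinates came from GENCODE 29 and may differ from the release the authors used. Values are given per culture for each member called, and in a role group with none for the member with the smallest adjusted p. Of other genes, the 3 with the smallest adjusted p per list are named, and of transcripts those called and the leading transcript of their gene. With 3 cultures against 3, an exact permutation test cannot go below 0.1 and none was used.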

Additional observations from a re-analysis of the deposited data

How the results depend on the processing

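The 6 members higher became 3 with DESeq2, 2 with the length offset and 15 with library totals alone, and the 4 lower became 1 with library totals alone. With the fold limit, the 1 member higher became 0 with the length offset, 5 with library totals alone and 2 without a filter. Of the other autophagy genes, the 16 higher became 9 with the length offset and 29 with library totals alone, and the 4 lower became 0 with library totals alone. Of member transcripts, the 3 higher became 34 with library totals alone, and the 5 lower became 3 with DESeq2 and 0 with library totals alone. The 1 switched isoform became 2 with length-divided fractions (transcripts of GABARAP and GABARAPL2 in place of that of ATG3), 3 with limma and 8 with no limit on the difference in fraction. DESeq2 gave no adjusted p for ENST00000483778 and ENST00000646025. For the transcript counts and the gene counts with the fold limit, shares of all features under these alternatives are not given. Whether those counts moved more or less than over all features therefore cannot be told. The causes of these moves were not tested.

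Leaving out 1 library at a time gave 1 to 6 members higher (fewest without control culture 1 or irradiated culture 1) and 3 to 6 lower, 0 to 3 higher and 0 to 1 lower with the fold limit, 7 to 17 other genes higher and 2 to 5 lower, 2 to 12 transcripts higher and 1 to 10 lower, and 1 to 3 isoforms switched. Other genes higher were fewest without irradiated culture 1. Transcripts were most without control culture 3, and transcripts lower were fewest without control culture 2. Without control culture 3 or irradiated culture 2, 3 isoforms switched. Shares of all features in the fits that left out a library are not given. These ranges cannot be told from a gain or loss of calls over all features. GABARAP and WIPI2 were called in all 13 alternatives of the gene test, and none of the 10 called members changed direction in them, while some members that were not called, such as BECN1, VMP1 and ATG3, had the other sign with library totals alone. Members not called in the main fit were gained without control culture 3 (ATG16L1 and NBR1 higher, BECN1 and CALCOCO2 lower) and without irradiated culture 2 (CALCOCO2 lower). They were also gained with the length offset or the replicate block (CALCOCO2 lower). Library totals alone, where 32.8% of all genes were higher, added ATG16L1, ATG4D, ATG7, MAP1LC3B, NBR1, OPTN, SQSTM1, VMP1 and WIPI1 as higher.

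With a replicate block, 6 members were higher, 5 lower and 1 isoform switched, and shares of all features in that fit are not given. Replicate numbers were taken only as names, since same-numbered deviations correlated at -0.00085, 0.091 and 0.016, and not every library correlated best with its own number. Members under 10 CPM, such as ATG10, ATG14, UVRAG and ATG2A, rest on few counts per library.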
